A study of Mus musculus with 9 samples.

Results

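Matrix metalloproteinases (MMPs) are enzymes that cut collagens, proteoglycans and other proteins of the extracellular matrix, and tissue inhibitors of metalloproteinases (TIMPs) are the small proteins that block them. Described here are 10 genes of these families, Mmp2, Mmp3, Mmp11, Mmp13, Mmp14, Mmp16, Mmp23, Timp1, Timp2 and Timp3, picked by symbol from the 52550 genes of the deposited count table. All 10 had counts in every library and passed the filter on low counts over the 9 libraries, as 10 of 13255 genes tested. Mmp3 did not pass it when the FMK libraries were left out. Mmp3, Mmp13 and Timp1 rose in cultures given one caspase inhibitor, Z-VAD-FMK, by 6.47, 3.61 and 1.93 on the log2 scale, and all 3 were lower with the second inhibitor, Q-VD-OPH, than with the first. Timp2 was lower with Q-VD-OPH than in either other group, and Mmp2 rose with both inhibitors. The rise of Mmp2 with Z-VAD-FMK was no longer called significant in 5 of 18 alternative analyses.

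The cells were dissociated from mouse forelimbs at embryonic day 12, spotted as dense drops (micromass cultures) and kept in a medium that lets limb cells form cartilage. One group of 3 cultures received Z-VAD-FMK at 100 µM (called FMK below), a second group of 3 received Q-VD-OPH at 100 µM (OPH), and 3 control cultures received the solvent, DMSO, all for 6 days with fresh medium every second day. The strain is not named in the labels, no genetic change is listed, and all 9 cultures shared the serum-containing medium and the harvest time. Both agents are cell-permeable inhibitors of many caspases, the proteases best known for their part in apoptosis. Z-VAD-FMK ends in a fluoromethyl ketone, whereas Q-VD-OPH carries a quinoline cap and a difluorophenoxy methyl ketone. The labels call the cultures biological replicates without saying whether they came from separate litters. The p-values therefore weigh differences against the spread between these cultures, as estimated over all 9 libraries.

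Most MMPs are secreted as inactive proenzymes and become active when another protease removes the propeptide. Membrane-type MMPs such as the product of Mmp14 stay on the cell surface, where the Mmp14 product together with the TIMP2 protein activates the proenzyme made from Mmp2. In the growing limb the collagenase made from Mmp13 helps to clear hypertrophic cartilage, and in joint disease it and the stromelysin made from Mmp3 take part in cartilage breakdown.

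The 3 members with the greatest rise under FMK are shown first by the DNA before their start sites, because MMP genes are textbook targets of the AP-1 and ETS transcription factors. RefSeq promoter windows (GRCm38.p6, 250 bases before to 50 after the start) were matched for 8 of the 10 members, as 9 windows since Mmp23 had a pair of them. The 250 bases before the start were taken on the plus strand from chr9:7445572-7445821 for Mmp3, chr9:7272264-7272513 for Mmp13 and chrX:20869916-20870165 for Timp1. Capitals mark matches to an AP-1 motif (TGAGTCA or its reverse complement TGACTCA) and to an ETS motif (AGGAAG, searched on both strands).
Mmp3: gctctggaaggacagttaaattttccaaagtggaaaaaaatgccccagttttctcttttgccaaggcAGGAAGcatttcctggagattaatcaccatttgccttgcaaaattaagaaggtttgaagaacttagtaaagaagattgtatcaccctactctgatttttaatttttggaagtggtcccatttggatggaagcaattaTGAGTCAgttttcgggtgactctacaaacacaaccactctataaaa
Mmp13: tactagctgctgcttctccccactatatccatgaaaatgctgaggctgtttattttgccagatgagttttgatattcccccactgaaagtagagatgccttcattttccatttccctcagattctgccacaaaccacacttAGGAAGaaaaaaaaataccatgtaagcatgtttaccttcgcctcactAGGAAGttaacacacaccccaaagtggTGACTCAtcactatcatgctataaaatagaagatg
Timp1: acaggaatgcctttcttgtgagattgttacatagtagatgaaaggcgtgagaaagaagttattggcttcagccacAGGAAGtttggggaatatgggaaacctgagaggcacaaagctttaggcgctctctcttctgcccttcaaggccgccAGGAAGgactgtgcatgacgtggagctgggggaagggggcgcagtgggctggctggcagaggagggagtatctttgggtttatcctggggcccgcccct
The AP-1 motif began 46 bases before the start of Mmp3 and, on the reverse strand, 35 bases before that of Mmp13. It was found in 2 of the 8 members with a window and in 5.20% of all 32851 promoter windows of this length. ETS motifs were found in windows of 5 members, Mmp3, Mmp13, Mmp14, Timp1 and Timp3, against 35.4% of all windows, and the third one of Timp1 lay 40 bases past the start. A RUNX motif (AACCACA, either strand, in 5.27% of windows) was found in Mmp13 alone among the members, beginning 119 bases before the start. No match overlapped a match to another of the 3 motifs. These matches describe letters in the windows and do not show that a factor was bound.

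The library kit primes at the poly(A) tail and sequences 3′ ends, so each count stands for a transcript end. Library totals ran from 5659789 to 6867350 counts, and levels are given as CPM (counts scaled to the library's size) after TMM scaling, with SD over n = 3 libraries. Differences were tested two-sided by edgeR's quasi-likelihood method, with p-values adjusted by Benjamini-Hochberg across the 13255 genes and a threshold of 0.05, and changes are log2 fold changes ± SE. The labels call the cells chondroblasts. The summed level of 8 cartilage markers, Col2a1, Acan, Sox9, Col9a1, Matn1, Comp, Hapln1 and Col11a1, was 2673 to 3875 CPM in the DMSO libraries, 1350 to 1447 in FMK and 1302 to 2216 in OPH, with none at 0. The summed level of 8 fibroblast and limb mesenchyme markers was 24440 to 26022 CPM in DMSO, 25342 to 26962 in FMK and 19536 to 19995 in OPH. Adipocyte markers (470 to 2276 CPM in DMSO, 111 to 199 in FMK, 709 to 2701 in OPH) and skeletal muscle markers (168 to 613, 103 to 398 and 194 to 535 CPM) were present too, so the cultures held more than 1 cell type.

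In FMK against DMSO, 4 of the 10 members were higher, Mmp2, Mmp3, Mmp13 and Timp1, and 0 were lower. For comparison, 20.5% of all genes tested were called, 10.4% higher and 10.1% lower. The members were chosen with earlier results of these data known, so counts above such shares are description only. With a term for the culture number, 5 members were higher and 1 lower, the additions being Mmp14 and Mmp16, against 26.8% of all genes called, 13.4% in each direction. In OPH against DMSO, 3 members were higher, Mmp2, Mmp3 and Mmp14, beside 8.6% of all genes, and 1 was lower, Timp2, beside 8.11% (16.7% in either direction). In all 3 comparisons, Mmp3 was tested only because the FMK libraries, where it was high, carried it past the low-count filter. In OPH against FMK, 0 members were higher, beside 4.2% of all genes, and 4 were lower, Mmp3, Mmp13, Timp1 and Timp2, beside 4.66% (8.86% in either direction). The median log2 fold change over the 10 members was 0.19, 0.13 and -0.16 in these 3 comparisons, and over all genes tested it was -0.0064, -0.0025 and 0.0084. FMK and OPH are compared with the same 3 DMSO libraries, so their contrasts are not independent of each other.

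**Figure D1:**
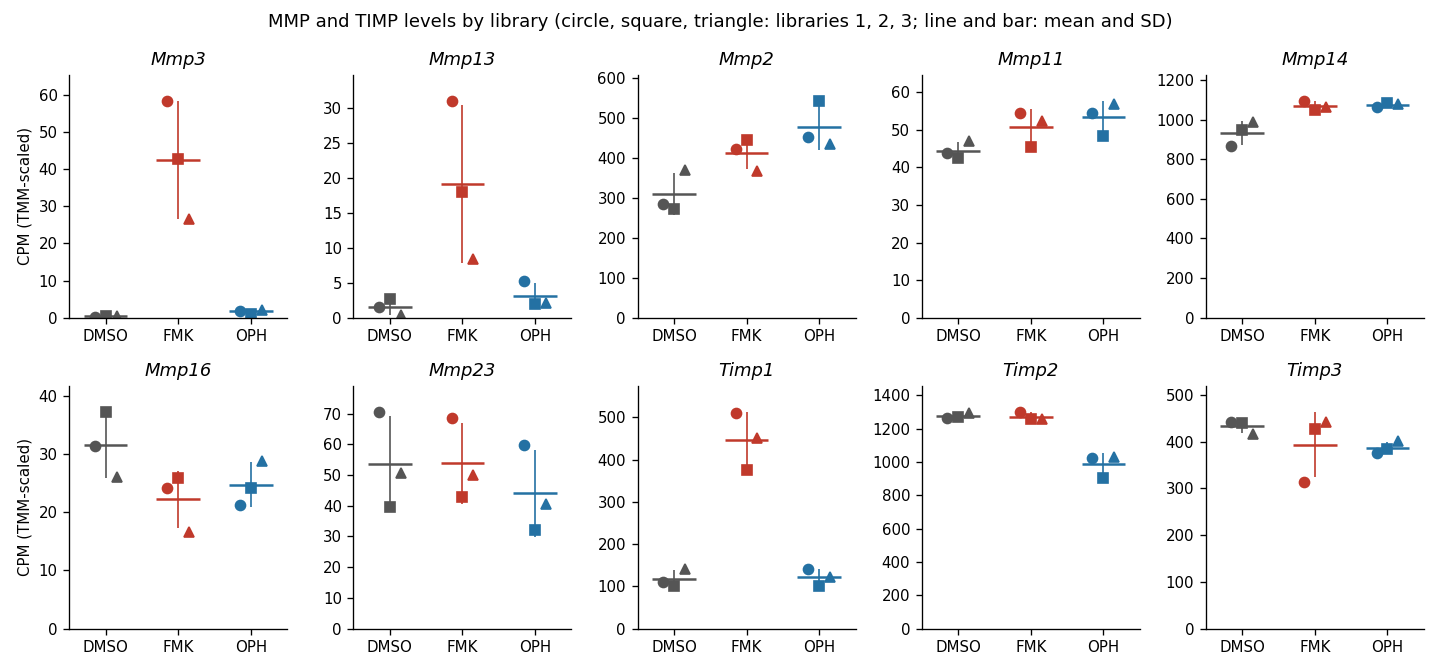
CPM of each of the 10 genes in every library, 1 panel per gene, with the 3 treatment groups on the x axis, the CPM after TMM scaling on the y axis from 0, horizontal lines at group means and vertical bars of 1 SD. Mmp3 (26.6 to 58.3 CPM), Mmp13 (8.44 to 30.96) and Timp1 (375 to 511) in FMK lie above all libraries of the other groups, and Timp2 in OPH (906 to 1027) lies below them.

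Mmp3 encodes stromelysin 1, which degrades proteoglycans and activates other proenzymes, and lies on chromosome 9 at 7445822 to 7455975 (GRCm38, plus strand). It had 2, 3 and 4 counts in the DMSO libraries, 358, 276 and 145 in FMK, and 13, 8 and 14 in OPH. The corresponding levels were 0.458 ± 0.137, 42.5 ± 15.9 and 1.73 ± 0.547 CPM. No library of one group reached the range of another. Mmp3 rose by 6.47 ± 0.39 in FMK (edgeR adjusted p = 2.62e-09), from 9 counts in all DMSO libraries together to 779. It was lower in OPH than in FMK (log2 fold change -4.62 ± 0.32, a fitted ratio of 0.0408, adjusted p = 5.71e-07). Mmp3 passed the low-count filter only through the FMK libraries, the group where it was high. The p-values of both comparisons carry that limit. FMK libraries 1 to 3 held 188, 88.4 and 45.9 times the CPM of the DMSO library of the same number.

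The rise of Mmp3 in OPH was far smaller, 1.86 ± 0.55 (adjusted p = 0.0275), and rested on 35 against 9 counts, a ratio of 3.73 with a 95% interval of 1.76 to 8.81 for counting error alone. Leaving out DMSO library 1, 2 or 3 or OPH library 1 or 3 ended this call (adjusted p = 0.110, 0.0789, 0.0639, 0.0858 and 0.102), as did limma-voom (adjusted p = 0.397). When only the DMSO and OPH libraries were fitted, Mmp3 did not pass the low-count filter and was not tested. In the authors' deposited table the adjusted p of OPH and DMSO for Mmp3 was 0.0602. For the rise in FMK, the authors' deposited table gave a log2 fold change of DMSO over FMK of -4.70 ± 0.31, a smaller size than fitted here, with an adjusted p of 1.20e-48.

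Mmp13, the gene of collagenase 3, which cuts fibrillar collagen including that of cartilage, lies on the plus strand of chromosome 9 at 7272514 to 7283331. It had 10, 17 and 3 counts in DMSO, 190, 116 and 46 in FMK, and 37, 14 and 13 in OPH. These were 1.57 ± 1.15, 19.1 ± 11.3 and 3.10 ± 1.87 CPM. All FMK libraries lay above all others, whereas DMSO and OPH overlapped. Mmp13 rose by 3.61 ± 0.67 in FMK (adjusted p = 0.00452), and by 3.08 to 4.26 with 1 library left out, the highest value without DMSO library 2. Its difference of 1.00 ± 0.74 in OPH against DMSO, with a 95% interval of -0.67 to 2.67, did not pass the threshold (adjusted p = 0.441) and was 0.38 without OPH library 1 and 1.65 without DMSO library 2. Against FMK it was lower in OPH (log2 fold change -2.61 ± 0.61, adjusted p = 0.0299). With 1 library left out the value ran from -3.24, without OPH library 1, to -2.08, without FMK library 1. That call was lost without DMSO library 1, FMK library 2, OPH library 2 or OPH library 3 (adjusted p = 0.0638, 0.0674, 0.127 and 0.107).

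Of 6 markers of hypertrophic cartilage and osteoblasts (Col10a1, Ihh, Alpl, Sp7, Bglap and Ibsp), cell types in which Mmp13 is known to be made, the summed level was 13.2 to 20.6 CPM in DMSO, 7.01 to 8.51 in FMK and 7.52 to 15.5 in OPH. Only 2 of the 6 had enough counts to be tested, and Bglap was at 0 in DMSO and FMK. Of the 2, Col10a1 was lower in FMK (log2 fold change -0.97 ± 0.33, adjusted p = 0.0444). That call was lost with limma-voom and in libraries numbered 1 and 2 (adjusted p = 0.0962 and 0.0959), and without DMSO library 1 or 3, FMK library 1, 2 or 3, or OPH library 3 (adjusted p up to 0.198). The sum of these 6 markers in every FMK library lay below every DMSO library, and the OPH range overlapped both. Of the 8 cartilage markers, 7 were lower in FMK and 6 in OPH than in DMSO, beside 10.1% and 8.11% of all genes. The part of these cells in the Mmp3 and Mmp13 results was not tested.

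**Figure D2:**
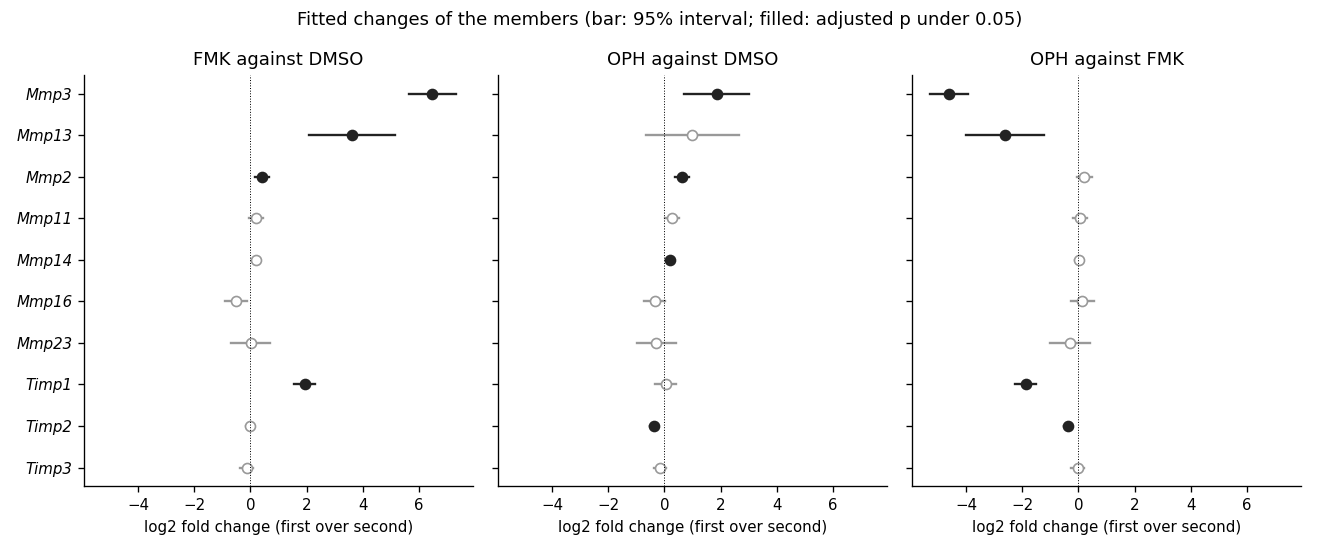
Fitted log2 fold change of each of the 10 genes (first group over second, x axis) with its 95% interval, 1 panel per comparison; filled points passed an adjusted p of 0.05. In FMK against DMSO, Mmp3 (6.47), Mmp13 (3.61) and Timp1 (1.93) stand to the right of the other members, and in OPH against FMK the same 3 genes stand to the left (-4.62, -2.61 and -1.87).

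Mmp2 (chromosome 8, 92827291 to 92853420, plus strand) encodes gelatinase A, which cleaves denatured collagen and basement membrane proteins. Its level was 285, 272 and 369 CPM in DMSO, 422, 444 and 368 in FMK, and 451, 542 and 434 in OPH. DMSO library 3 was the highest of its group and reached the level of FMK library 3, so these groups overlapped, whereas all OPH libraries lay above all DMSO libraries. Mmp2 rose in OPH by 0.62 ± 0.12 (adjusted p = 0.00298), and no alternative or left-out library ended that call. In FMK it rose by 0.41 ± 0.12 (adjusted p = 0.0269). This smaller rise did not pass without DMSO library 1 or 2 or FMK library 1 or 2 (adjusted p = 0.0970, 0.105, 0.0829 and 0.104), nor with scaling by library size alone (adjusted p = 0.0744). OPH and FMK differed by 0.21, with a 95% interval of -0.050 to 0.47 (adjusted p = 0.334).

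Mmp14, the gene of the membrane-type enzyme MT1-MMP, lies on chromosome 14 at 54431612 to 54445364 on the plus strand. Its levels were 864, 947 and 987 CPM in DMSO, 1095, 1048 and 1064 in FMK, and 1061, 1086 and 1080 in OPH. Every inhibitor library lay above every DMSO library. The fitted changes were nearly equal, 0.20 ± 0.07 in FMK and 0.21 ± 0.07 in OPH, and lay on either side of the threshold (adjusted p = 0.0501 and 0.0463). In FMK, 7 of 18 alternatives called Mmp14. Among these were the culture number as a block (adjusted p = 0.0270), DESeq2 (0.0442), limma-voom (0.0387) and libraries numbered 1 and 2 (0.0337). In OPH, 8 of 18 alternatives lost the call, among them the fit of only the groups compared. Without DMSO library 1 the change in OPH was 0.15 with an adjusted p of 0.252. The call was also lost without DMSO library 2, FMK library 1 or 2, or OPH library 1, 2 or 3 (adjusted p = 0.0846, 0.0598, 0.0655, 0.0919, 0.125 and 0.121). OPH against FMK gave 0.01 (95% interval -0.13 to 0.15, adjusted p = 0.956).

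Mmp16 encodes a further membrane-type enzyme, MT3-MMP, on chromosome 4 (17852893 to 18119145, plus strand). Its levels were 31.4, 37.3 and 26.1 CPM in DMSO, 24.1, 25.99 and 16.7 in FMK, and 21.3, 24.1 and 28.9 in OPH. FMK libraries were all below DMSO libraries, by a narrow gap of 25.99 to 26.1 CPM. The log2 fold change in FMK was -0.50 ± 0.19, which did not pass the threshold (adjusted p = 0.0691). It passed in 4 of 18 alternatives, among them the culture number as a block (adjusted p = 0.0260). In OPH it was -0.35 ± 0.18 (adjusted p = 0.227), and the 2 inhibitors differed by 0.15 with a 95% interval of -0.25 to 0.54 (adjusted p = 0.712).

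Mmp11 encodes stromelysin 3, a secreted enzyme activated inside the cell by furin, and lies on the minus strand of chromosome 10 (75923222 to 75936496). Its levels were 43.8, 42.5 and 47.1 CPM in DMSO, 54.6, 45.3 and 52.3 in FMK, and 54.5, 48.4 and 57.0 in OPH. All OPH libraries were above DMSO, yet neither the change of 0.26 ± 0.12 in OPH (adjusted p = 0.157) nor that of 0.19 ± 0.12 in FMK (adjusted p = 0.306) passed. Exons of Mmp11 overlap those of Chchd10 on the opposite strand, which had 6233 counts over all libraries. The authors' use of strand is not given in the sources used here, so the Mmp11 values are uncertain.

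Mmp23 (chromosome 4, 155650655 to 155653384, minus strand) encodes a small membrane-anchored member of the family. Its levels were 70.6, 39.6 and 50.6 CPM in DMSO, 68.4, 42.8 and 49.9 in FMK, and 59.6, 32.1 and 40.4 in OPH. The spread within each group was wide, with library 1 the highest and library 2 the lowest in all 3 groups. No comparison passed, with 0.0029 ± 0.30 in FMK (adjusted p = 0.995) and -0.28 ± 0.30 in OPH (adjusted p = 0.621). Against the DMSO library of the same number, the OPH libraries stood at 0.844, 0.810 and 0.799 of its level, and with the number as a block the adjusted p was 0.0643.

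Timp1 encodes an inducible, secreted inhibitor of most MMPs and lies on the X chromosome at 20870166 to 20874735 (plus strand), within Syn1 on the opposite strand but with no shared exon. Its level was 109.7, 99.8 and 142 CPM in DMSO, 511, 375 and 451 in FMK, and 142, 102 and 122 in OPH. All FMK libraries lay far above the others, and the ranges of DMSO and OPH were almost the same. Timp1 rose by 1.93 ± 0.17 in FMK (3.80-fold, adjusted p = 2.52e-05) and was lower in OPH than in FMK (log2 fold change -1.87 ± 0.17, adjusted p = 0.000174). OPH against DMSO gave 0.05, with a 95% interval of -0.32 to 0.43 (adjusted p = 0.888). Syn1 had 65 counts over all libraries, against 620 to 3134 for Timp1 in each library.

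Timp2, whose product both inhibits MMPs and helps the Mmp14 product to activate pro-MMP2, lies on the minus strand of chromosome 11 (118301069 to 118355740). It was at 1266, 1268 and 1294 CPM in DMSO, 1302, 1255 and 1257 in FMK, and 1026, 906 and 1027 in OPH. All OPH libraries lay below all others, and the spread within groups was small. Timp2 was lower in OPH than in DMSO (log2 fold change -0.37 ± 0.07, adjusted p = 0.000999) and than in FMK (-0.37 ± 0.07, adjusted p = 0.00272), and no alternative or left-out library ended either call. FMK and DMSO differed by -0.0050 with a 95% interval of -0.15 to 0.14 (adjusted p = 0.972). The 8 fibroblast and limb mesenchyme markers also had a lower summed level in OPH, and none was at 0. Most of that sum came from the collagen genes Col1a1, Col1a2 and Col3a1, with OPH means of 8730, 7631 and 2081 CPM. By gene, 2 of the 8 markers were higher and 2 lower in OPH than in DMSO, beside 8.6% and 8.11% of all genes. With the culture number as a block it was 2 higher and 5 lower, beside 11.6% and 11.3%. The part of these markers in the Timp2 result was not tested. In bulk RNA, fewer cells of a type and less RNA per cell cannot be told apart.

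Timp3 encodes an inhibitor that stays bound to the matrix and also blocks several ADAM proteases. It lies on chromosome 10 (86300372 to 86349506, plus strand) and shares exon positions with Syn3 on the opposite strand, which had 4 counts in all. Its levels were 442, 441 and 416 CPM in DMSO, 313, 427 and 441 in FMK, and 376, 384 and 401 in OPH. FMK library 1 was the lowest of all 9, and the other FMK libraries lay within the DMSO range. The changes of -0.14 ± 0.10 in FMK and -0.16 ± 0.10 in OPH did not pass (adjusted p = 0.405 and 0.337), though all OPH libraries were below all DMSO libraries.

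Seen over all members, 5 of the 10 did not overlap between FMK and DMSO (4 above and 1 below), beside 35.5% of all genes. Between OPH and DMSO it was 6 (4 above and 2 below), beside 33.7%, and between OPH and FMK 4, all below, beside 27.1%. The 2 inhibitors were compared as 1 pair at the same dose and time. They differed for Mmp3, Mmp13, Timp1 and Timp2, and for the other 6 members the intervals of the difference include 0, which does not show that the compounds act alike.

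Of the other 17 genes of the families, all in the count table, 5 had no count, 6 had few and 6 were tested. Mmp1a, Mmp1b, Mmp7, Mmp20 and Mmp21 had 0 counts in all 9 libraries, which in each group allows up to 3 counts, or 0.153 CPM in DMSO, 0.166 in FMK and 0.147 in OPH. Mmp8, Mmp10, Mmp24, Mmp25, Mmp27 and Mmp28 had counts but too few for the filter, and Mmp9, Mmp12, Mmp15, Mmp17, Mmp19 and Timp4 were tested. Of these 6, 1 was lower in FMK and in OPH than in DMSO, beside 10.1% and 8.11% of all genes. In OPH against FMK 0 were called, beside 8.86%. There a block on culture number called 2, Mmp12 and Mmp19, beside 16.1%.

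Mmp9, the gene of gelatinase B, which is made in quantity by macrophages and osteoclasts, was the one that fell. It was at 124, 58.7 and 218 CPM in DMSO, 9.45, 11.9 and 18.4 in FMK, and 7.83, 8.94 and 5.68 in OPH. All inhibitor libraries lay below all DMSO libraries. The log2 fold change was -3.35 ± 0.55 in FMK (adjusted p = 0.00689) and -4.15 ± 0.58 in OPH (adjusted p = 0.00452), opposite in sign to the second gelatinase gene, Mmp2.

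Of 10 macrophage markers (Csf1r, Cd68, Adgre1, Tyrobp, Mrc1, Cx3cr1, Ptprc, Lyz2, Fcgr1 and Spi1), 10 were lower in FMK and 9 in OPH, beside 10.1% and 8.11% of all genes. Their summed level in libraries 1, 2 and 3 was 1529, 1734 and 924 CPM in DMSO. It was 20.4, 29.9 and 25.9 in FMK, and 132, 135 and 123 in OPH. The order of libraries was the reverse of that of Mmp9 in DMSO, neither in FMK, and the same in OPH. Between the inhibitors, 8 of the 10 were higher in OPH than in FMK, beside 4.2% of all genes. For Mmp9, OPH against FMK gave a log2 fold change of -0.80 ± 0.63 (edgeR adjusted p = 0.535). The 6 osteoclast markers (Acp5, Ctsk, Dcstamp, Ocstamp, Calcr and Atp6v0d2) summed to 117, 78.9 and 170 CPM in DMSO libraries 1, 2 and 3. The sums were 81.6, 69.0 and 63.7 CPM in FMK and 62.9, 51.4 and 49.6 in OPH, where Dcstamp was at 0. The order of libraries was that of Mmp9 in DMSO, the reverse in FMK, and neither in OPH. Of 3 osteoclast markers tested, 2 were lower in FMK and 2 in OPH, beside 10.1% and 8.11% of all genes. The part of these cells in the Mmp9 result was not tested.

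Mmp3 and Mmp13 belong to a cluster of 10 MMP genes that spans 427 kb of chromosome 9, in the order Mmp13, Mmp12, Mmp1b, Mmp3, Mmp1a, Mmp10, Mmp8, Mmp27, Mmp20 and Mmp7. Mmp10, which encodes stromelysin 2, the closest relative of stromelysin 1, had 0 counts in all DMSO libraries, 18, 8 and 5 in FMK, and 1, 0 and 0 in OPH. With 3 counts over the DMSO group as the floor and the 31 FMK counts taken as they stand, the level in FMK was 11.2-fold that floor. Allowing for counting error, it was at least 8.57-fold higher in FMK than in DMSO (lower limit of the exact 95% interval). FMK library 1 held 18 of the 31 counts, and without it the fold against the floor was 7.11. Leaving out a DMSO library, which raises the floor, gave 7.25 to 7.64. Mmp10 was not tested, and these left-out values were added after seeing the data. Mmp12, the macrophage elastase gene between Mmp13 and Mmp3, had 14, 14 and 16 counts in DMSO, 15, 23 and 18 in FMK, and 10, 0 and 5 in OPH. Its difference in FMK was 0.46 ± 0.62 (adjusted p = 0.672). OPH against FMK gave -2.05 ± 0.69 with an adjusted p of 0.0756, or 0.0321 with the culture number as a block. Mmp8 and Mmp27 had 0 to 3 counts per library, and 4 genes of the cluster were at 0 throughout.

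**Figure D3:**
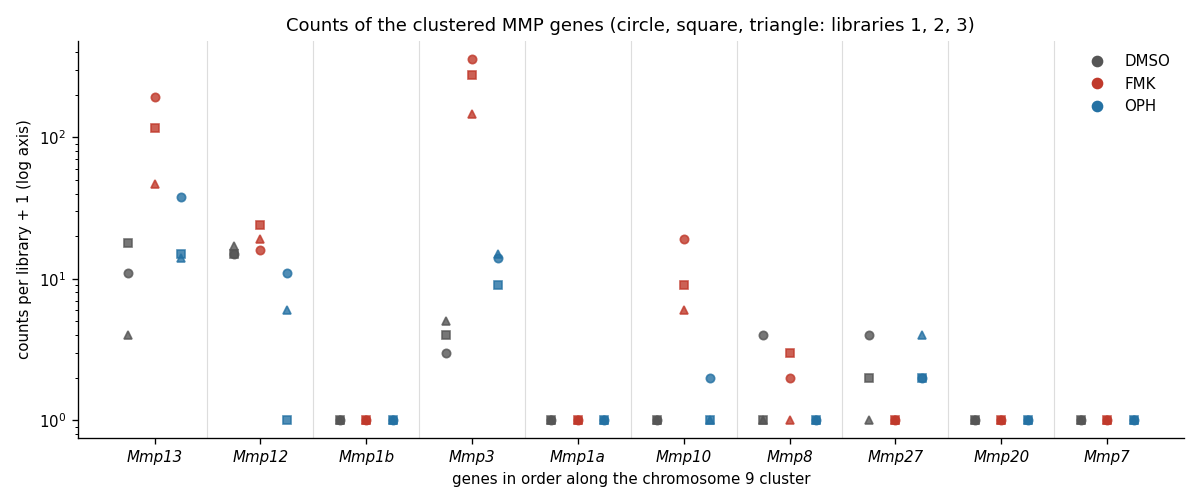
Counts plus 1 per library (log axis) of the 10 MMP genes of the chromosome 9 cluster in genomic order, coloured by treatment, with circles, squares and triangles for libraries 1, 2 and 3. Mmp13, Mmp3 and Mmp10 are highest in FMK (46 to 190, 145 to 358 and 5 to 18 counts), while Mmp12 beside Mmp13 has 15 to 23 counts in FMK and 14 to 16 in DMSO.

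Outside the cluster, Mmp19, which encodes a widely made secreted MMP, was at 20.6, 14.5 and 16.5 CPM in DMSO, 32.1, 19.95 and 14.1 in FMK, and 15.5, 15.5 and 8.21 in OPH. The groups overlapped in all 3 comparisons. OPH against FMK gave -0.75 ± 0.31 (adjusted p = 0.159, or 0.0118 with the culture number as a block), and library 3 was the lowest in both inhibitor groups. Timp4 had 1 to 18 counts per library, and its difference of -1.74 ± 0.78 in FMK did not pass (adjusted p = 0.135). The membrane-type genes Mmp15 and Mmp17 had 4 to 32 counts per library, and no comparison of either passed.

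The genes around the MMPs were read in 4 lists. These too were chosen with earlier results of these data known, so counts above the share of all genes are description only. The first held 20 genes for activators, cell-surface partners and other inhibitors of MMPs, all tested. In FMK against DMSO, 7 were higher and 4 lower, beside 10.4% and 10.1% of all genes, with a median log2 fold change of 0.11. Cd44, the hyaluronan receptor that can hold MMPs at the cell surface, rose from 66.3 ± 3.99 to 123 ± 5.80 CPM (0.89 ± 0.09, adjusted p = 1.33e-06). Plat, the gene of tissue plasminogen activator, rose by 1.37 ± 0.20 (adjusted p = 9.49e-05). The proprotein convertase genes Pcsk5 and Pcsk6, whose products can activate proenzymes, fell by 1.03 ± 0.11 and 1.19 ± 0.21 (adjusted p = 1.78e-06 and 0.000566).

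In OPH against DMSO, 0 genes of this list were higher and 4 were lower, beside 8.6% and 8.11% of all genes, with a median of -0.17. These were Plau, the urokinase gene (log2 fold change -1.47 ± 0.26, adjusted p = 0.000615), Pcsk5 (-0.54 ± 0.11), the integrin gene Itgb3 (-0.71 ± 0.17) and the proteoglycan gene Spock1 (-0.55 ± 0.16). The Spock1 call was lost without DMSO library 3 or OPH library 2 (adjusted p up to 0.127). In OPH against FMK, 3 were higher and 6 lower, beside 4.2% and 4.66% of all genes. With the block on culture number it was 3 and 11, beside 7.78% and 8.36%. Itgb3 (-1.40 ± 0.17), Cd44 (-0.67 ± 0.09), Plat (-1.13 ± 0.19) and Bsg, the gene of the MMP inducer basigin (-0.42 ± 0.08), were lower in OPH than in FMK.

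Among 29 genes for cytokines, their receptors and transcription factors known to induce MMP genes, 23 were tested. With FMK against DMSO, 13 were higher and 2 lower, beside 10.4% and 10.1% of all genes, with a median of 0.59. In OPH against DMSO 7 were higher and 1 lower, beside 8.6% and 8.11%, with a median of 0.19. Jun, a subunit of AP-1, was at 79.1 ± 5.22 CPM in DMSO, 202 ± 3.17 in FMK and 153 ± 8.07 in OPH. It rose by 1.35 ± 0.09 in FMK (adjusted p = 2.90e-09) and by 0.96 ± 0.09 in OPH (adjusted p = 4.33e-07). Cebpb, a transcription factor gene of the inflammatory response, rose by 1.11 ± 0.10 and 0.91 ± 0.10 (adjusted p = 2.58e-07 and 4.72e-06).

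Osmr and Il6st encode the subunits of the oncostatin M receptor. Osmr rose by 1.25 ± 0.14 in FMK (adjusted p = 2.47e-06) and by 0.55 ± 0.14 in OPH (adjusted p = 0.00959). The call in OPH was lost without DMSO library 2 or OPH library 3 (adjusted p up to 0.0540). Il6st rose by 0.73 ± 0.09 in FMK (adjusted p = 1.56e-05), and Jund, a further AP-1 subunit gene, rose by 0.69 ± 0.09 in OPH (adjusted p = 3.08e-05). In OPH against FMK, 1 gene of the list was higher and 8 were lower, beside 4.2% and 4.66% of all genes, with a median of -0.40. Il6st (-0.62 ± 0.09), Osmr (-0.70 ± 0.13) and the ETS factor gene Etv4 (-1.44 ± 0.28) were lower in OPH, and Epas1, the gene of a hypoxia-inducible factor, was higher (1.89 ± 0.37). Il1a, Il1b, Tnf, Osm, Lif and Elf3 had too few counts to be tested.

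**Figure D4:**
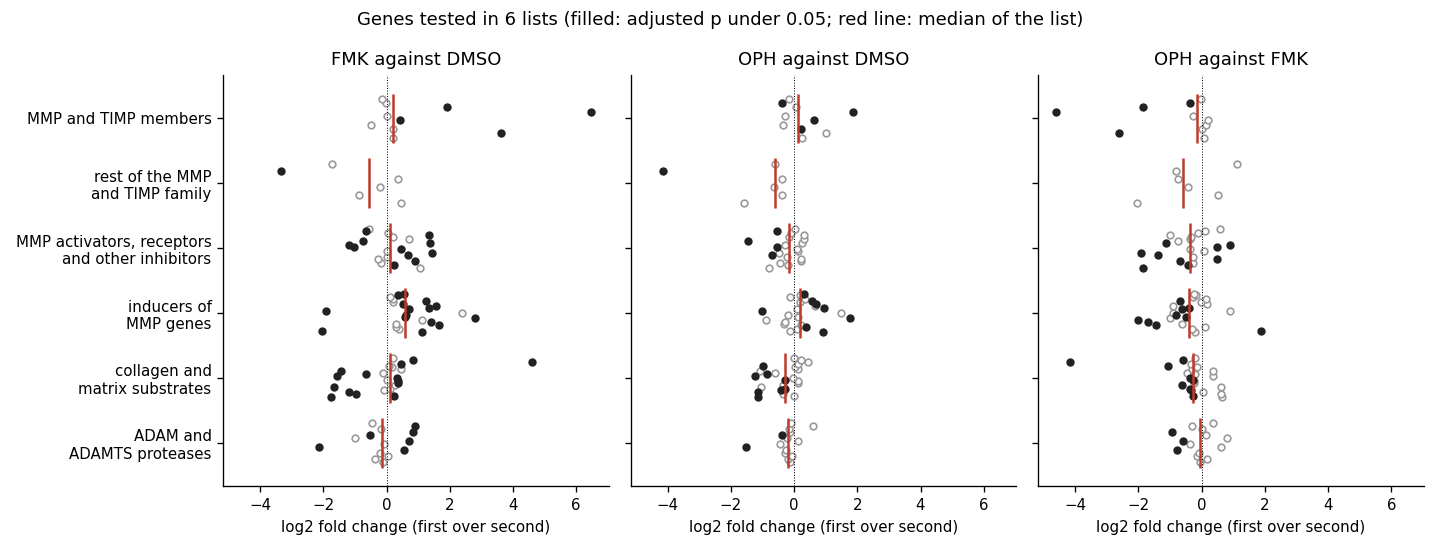
Log2 fold change (x axis, first group over second) of every tested gene in 6 lists, 1 panel per comparison, with filled points for genes past an adjusted p of 0.05 and a red line at the median of each list. The median of the inducer list is 0.59 in FMK against DMSO, 0.19 in OPH against DMSO and -0.40 in OPH against FMK.

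All 23 genes of a list of collagens and other matrix proteins, the substrates of these enzymes, were tested. Between FMK and DMSO, 7 were higher and 7 lower in FMK, beside 10.4% and 10.1% of all genes, with a median of 0.098. Spp1, the osteopontin gene, rose from 22.5 ± 3.24 to 543 ± 239 CPM (4.59 ± 0.39, adjusted p = 0.000307). Col5a2 and Tnc, the tenascin C gene, rose by 0.33 ± 0.06 and 0.83 ± 0.16, while Acan, the gene of the cartilage proteoglycan aggrecan, fell by 1.77 ± 0.31 (adjusted p = 0.00480). In OPH against DMSO, 0 were higher and 8 lower, beside 8.6% and 8.11% of all genes, with a median of -0.27. Col1a1 (-0.43 ± 0.07), Col1a2 (-0.27 ± 0.06) and Comp, a cartilage matrix gene (-0.86 ± 0.14), were lower, as was Lum, the lumican gene (-0.98 ± 0.20). The Lum call was lost without DMSO library 3 or OPH library 3 (adjusted p up to 0.0533). In OPH against FMK, 0 were higher and 9 lower, beside 4.2% and 4.66% of all genes. With the block on culture number it was 2 and 14, beside 7.78% and 8.36%. Spp1 was lower in OPH than in FMK (log2 fold change -4.16 ± 0.38, adjusted p = 0.00171).

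Of 15 genes for ADAM and ADAMTS proteases, the relatives of MMPs that shed surface proteins or cut aggrecan and procollagen, 14 were tested. FMK against DMSO had 4 higher and 2 lower, beside 10.4% and 10.1% of all genes (4 lower with the block, beside 13.4%). Adamts1 and Adamts4, which encode aggrecanases, rose by 0.72 ± 0.13 and 0.83 ± 0.17 (adjusted p = 0.00124 and 0.00203). Adam8, a gene known from leukocytes and osteoclasts, fell by 2.15 ± 0.27 in FMK and by 1.52 ± 0.26 in OPH (adjusted p = 1.42e-05 and 0.000456). The procollagen N-proteinase gene Adamts2 was lower in FMK (-0.52 ± 0.13, adjusted p = 0.00618) and in OPH (-0.38 ± 0.12, adjusted p = 0.0418), where leaving out any of 6 single libraries ended the call (adjusted p up to 0.147). In OPH against DMSO, 0 were higher and 2 lower, beside 8.6% and 8.11% of all genes (4 lower with the block, beside 11.3%). In OPH against FMK 0 were higher and 3 lower, beside 4.2% and 4.66%. Without OPH library 2, the calls of Adam19 (-0.78 ± 0.17) and Adamts1 (-0.58 ± 0.13) in the last comparison were lost (adjusted p = 0.0519 and 0.0669), and Adamts4 (-0.95 ± 0.17) was called under all alternatives run.

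The genes most like 4 of the members were found by Pearson's r of log2 CPM over the 9 libraries, which share their 3 groups, so that r mostly follows the group differences and is given as a description. For Mmp3 they were Ercc1 (r = 0.991), Il13ra1 (0.989) and Sdc3 (0.986). Those nearest to Timp1 were Lsp1 (0.992), Qsox1 (0.989) and Ripk3 (0.981). For Mmp13 they were Ifnar2 (0.970), Ikbke (0.967) and Ctsl (0.957), and for Mmp14 Tead2 (0.977), Atf7ip (0.962) and Dusp28 (0.953). Like Mmp14, Tead2 was close to equal in FMK and OPH, at 92.5 ± 5.44 and 91.0 ± 5.26 CPM, and lower in DMSO, at 61.9 ± 16.5 CPM. Ripk3 was at 19.5 ± 1.25 CPM in DMSO, 35.2 ± 1.18 in FMK and 18.02 ± 2.09 in OPH, the same order of FMK above both other groups as Timp1.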

How the data were processed

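RNA of 9 micromass cultures (3 DMSO, 3 FMK, 3 OPH) was measured by 3′-end sequencing. The authors deposited whole-number counts per gene and library, and a summed count per group. DESeq2 output stood beside them in the deposited table, per the file headers: a mean signal, a log2 fold change and its error, a Wald score, and raw and adjusted p-values. FastQC, MultiQC, cutadapt, STAR, DESeq2 and mm10 are named per the submitters' processing notes. Not given in the sources used here are versions, the counting program, the annotation, whether strand was used, and how reads with several matches were counted. Of the authors' table, only statistics of Mmp3 are quoted.

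The 99 spike-in rows, with 1 count in all, were left out. Counts were tested in R 4.3.3 with edgeR 4.0.16 (filterByExpr, TMM, robust quasi-likelihood fit over all 9 libraries without covariates), leaving 13255 genes, and the procedure was tested on simulated data. The alternatives were DESeq2 1.42.0, limma-voom (limma 3.58.1), other scalings and filters (30 counts in 3 libraries, or none), only the groups compared, a block on culture number, libraries numbered 1 and 2, and each library left out. Equal numbers deviated together: their correlations ran from 0.102 to 0.344 over 9 pairs, against -0.28 to 0.015 for unequal numbers. By this check, with a limit of 0.1, the numbers were taken to pair the libraries, although the lowest value lay close to that limit. The labels do not say what a number shares. Deviations were taken from group means, which pushes values of unequal numbers below 0 where equal numbers deviate together. The main tests did not use the pairing.

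Positions are from GENCODE M21 (GRCm38), in which 10 of 10 members had the start given in the table. Promoter windows are from RefSeq. Named were all members, the other MMP and TIMP genes, up to 4 genes per list and comparison with the smallest p among those called, and the 3 genes most correlated with Mmp3, Mmp13, Mmp14 and Timp1. The members and lists were chosen with earlier results of these data known. The depth of 5659789 to 6867350 counts per library limits genes with few counts, and counting intervals and floors cover counting error only. Of the further marker lists, summed levels over all 9 libraries were below 5 CPM for neutrophils and endothelium, at most 32.9 CPM for glia and melanocytes and at most 11.5 CPM for keratinocytes.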

Additional observations from a re-analysis of the deposited data

How the results depend on the processing

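Over the 10 members, 3 comparisons and up to 18 alternatives each, 483 values kept their direction and side of the threshold, 24 lost a call, 12 gained one and 20 changed sign, all 20 without a call. Mmp3, Mmp13 and Timp1 in FMK, Mmp2 and Timp2 in OPH, and Mmp3, Timp1 and Timp2 in OPH against FMK kept their calls under every alternative run. In FMK against DMSO, 1 member was called lower (Mmp16) with library size alone, without the low-count filter and with the replicate block, against 0. In OPH against DMSO, 1 member was higher when only the groups compared were fitted, where Mmp3 was not tested, and 2 were lower in libraries numbered 1 and 2, where Mmp16 joined Timp2. The replicate block called 2139 genes in OPH against FMK, against 1175, and changed no other call of a member than Mmp14 and Mmp16 in FMK. The cause of these shifts was not tested.

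Leaving out 1 library at a time gave 1979 to 2667 genes called in FMK against DMSO, 1486 to 2416 in OPH against DMSO and 571 to 1386 in OPH against FMK, where it was 712 without FMK library 1, 709 without FMK library 2 and 571 without OPH library 2. The members called higher were then 3 to 5, 1 to 3 and 0 in the 3 comparisons, and those called lower 0 to 1, 1 and 3 to 4. Changes of sign, none of them called, were as follows. In FMK against DMSO, Mmp23 gave -0.096 with library size alone and -0.21 to 0.25 with a library left out. Timp2 gave 0.0015 without the low-count filter, 0.014 in libraries numbered 1 and 2, and -0.019 to 0.011 with a library left out, and Timp3 gave -0.23 to 0.0077. In OPH against DMSO, Timp1 gave -0.068 to 0.22 with a library left out. In OPH against FMK, leaving out a library gave -0.010 to 0.14 for Mmp11, -0.0093 to 0.026 for Mmp14, -0.017 to 0.27 for Mmp16 and -0.17 to 0.066 for Timp3. Mmp16 gave -0.14 in libraries numbered 1 and 2, and Timp3 gave 0.083 with library size alone and 0.039 in libraries numbered 1 and 2.

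With library size alone as scaling, the median over all genes became -0.11 in FMK against DMSO and 0.12 in OPH against FMK. Mmp3 and Mmp13 had 2 to 17 counts per DMSO library, so their changes in OPH are limited by depth.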
